A study of Mus musculus with 62 samples.

Results

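Chromatin regions assigned to the 4 myogenic regulatory factors (MRFs), Myod1, Myf5, Myog and Myf6, were collected from maps of skeletal muscle of male C57BL/6 mice. A region was taken when its Gene Name column gave an MRF as the gene with the nearest start site. The rule found 194 of 601616 regions. Of these, 190 were among the 596282 regions of 16 lists of H3K27ac and H3K4me2 peaks, and 4 were among the 5334 regions of 4 lists that the authors had selected for a difference in H3K27ac. H3K27ac (acetylation of lysine 27 of histone 3) marks active promoters and enhancers, and H3K4me2 (dimethylation of lysine 4) marks promoters and enhancers that may or may not be active.

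Each mark was measured by ChIP-seq in 8 groups with 2 libraries per group. Untreated muscle came from quadriceps (Quad), extensor digitorum longus (EDL), soleus (Sol) and diaphragm (Dia) of wild type sedentary adults. Quadriceps was also taken from wild type mice hours after their last bout of several weeks of voluntary wheel running (Ex) and from their sedentary controls (Sed). The remaining pair was quadriceps of sedentary mice labelled PGC1a Tg(+) (mTg), in which a muscle creatine kinase promoter drives Pgc1a in muscle fibers throughout life, and of wild type controls (Wt). A quadriceps library came from 1 muscle of 1 animal, whereas EDL, Sol and Dia libraries pooled muscles of several animals. The 32 libraries held 6405517 to 24195147 tags, with the lowest in an H3K4me2 library labelled mTg, and the lists held 27527 to 49010 regions. The tissue label was borne out by the fiber markers, of which 7 or 8 of 8 had an H3K27ac region in every group, and Myh7, the slow myosin heavy chain, had one in Sol and Dia alone. Of 7 satellite cell markers, 6 had a region in every group, all but Calcr. In whole muscle, fewer cells of a type and less of a mark per cell cannot be told apart.

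MRFs are basic helix-loop-helix transcription factors that pair with E proteins and bind the E box, CANNTG, in the regulatory DNA of muscle genes. Myf5 and Myod1 commit precursor cells to the muscle lineage, Myog drives their differentiation and fusion, and Myf6 (also MRF4) is the member most abundant in adult fibers. Myf5 and Myf6 lie in tandem on chromosome 10 and share a long upstream regulatory interval that runs through the Ptprq gene. Myod1 has a distal regulatory region several kilobases upstream, which is transcribed into the noncoding RNA Munc. In adult muscle, Myf5 and Myod1 are best known in satellite cells, and Myod1 and Myog differ between fast and slow fibers.

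Sequences of the sites on which the results turn are given first, from the mouse genome of build mm10 and on the strand of the gene, with each E box in capitals. They are the 250 bases before the Myog start site, where TCAGGTTTC, a MEF3 element known from the Myog promoter, is also in capitals, and accessible sites found by ATAC-seq in control quadriceps. The upstream Myod1 site, at -5.17 kb and just before the start of Munc, also has GGAAA, the core bound by NFAT, in capitals on either strand (TTTCC where it lies on the other strand), because an NFAT peak of soleus lay on it. The Myf6 site at -68.3 kb is shown because H3K27ac around it was lower after exercise, and it holds no E box.
Myog promoter (chr1:134289754-134290003, plus strand): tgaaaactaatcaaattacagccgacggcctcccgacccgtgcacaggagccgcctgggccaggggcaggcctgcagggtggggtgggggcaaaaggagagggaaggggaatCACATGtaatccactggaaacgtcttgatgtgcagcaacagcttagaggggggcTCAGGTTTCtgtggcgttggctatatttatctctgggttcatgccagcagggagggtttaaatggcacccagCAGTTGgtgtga
Myod1 site at -0.178 kb (chr7:46376199-46376393, plus strand): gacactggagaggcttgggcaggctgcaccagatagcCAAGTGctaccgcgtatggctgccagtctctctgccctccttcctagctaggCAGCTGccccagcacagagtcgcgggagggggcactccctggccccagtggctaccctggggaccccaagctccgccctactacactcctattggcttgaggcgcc
Myod1 site at -5.17 kb (chr7:46371207-46371401, plus strand): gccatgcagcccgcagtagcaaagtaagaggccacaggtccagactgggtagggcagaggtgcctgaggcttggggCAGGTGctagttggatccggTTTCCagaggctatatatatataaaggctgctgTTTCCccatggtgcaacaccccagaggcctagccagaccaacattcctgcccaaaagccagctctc
Myog site at 13.0 kb (chr1:134302875-134303069, plus strand): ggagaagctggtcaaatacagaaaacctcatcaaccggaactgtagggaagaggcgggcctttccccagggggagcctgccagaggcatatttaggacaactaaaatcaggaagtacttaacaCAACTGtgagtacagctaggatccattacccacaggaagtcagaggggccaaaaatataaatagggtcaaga
Myf6 site at -5.13 kb (chr10:107499758-107499952, minus strand): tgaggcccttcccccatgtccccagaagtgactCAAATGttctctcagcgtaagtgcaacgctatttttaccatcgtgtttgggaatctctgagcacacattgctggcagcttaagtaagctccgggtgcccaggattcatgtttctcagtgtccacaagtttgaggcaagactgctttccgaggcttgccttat
Myf6 site at -8.63 kb (chr10:107503259-107503453, minus strand): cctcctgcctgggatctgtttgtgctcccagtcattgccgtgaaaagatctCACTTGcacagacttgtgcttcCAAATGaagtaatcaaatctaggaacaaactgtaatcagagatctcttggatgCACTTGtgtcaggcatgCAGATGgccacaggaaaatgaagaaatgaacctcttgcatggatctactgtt
Myf6 site at -68.3 kb (chr10:107562970-107563164, minus strand): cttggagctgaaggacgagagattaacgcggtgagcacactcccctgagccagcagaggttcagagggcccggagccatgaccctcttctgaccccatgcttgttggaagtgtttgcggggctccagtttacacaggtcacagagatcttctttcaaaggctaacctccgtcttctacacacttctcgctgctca

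The Myog promoter held 2 E boxes and 1 TCAGGTTTC, searched on both strands. An E box was found in 66.2% of the 32851 RefSeq promoters of the same length and TCAGGTTTC in 0.387% of them. The 250 bases before the Myf5 start site (chr10:107486135-107486384, minus strand) held neither. RefSeq gives Myf5 a curated transcript that starts at 107486134, used here for all distances, and a predicted one that starts at 107486927, so that these bases lie within the outer bounds of the gene. Among 15 accessible sites inside MRF regions, 12 held an E box, compared with 65.6% of all 44911 ATAC-seq peaks. The site at -8.63 kb from Myf6 held 4 E boxes, a number reached or passed in 3.09% of all peaks. CAGCTG, a form of E box often bound by MyoD, was in 2 of the 15 sites, compared with 21.1% of all peaks. GGAAA was in 8 of the 15, compared with 50.4% of all peaks. These matches describe letters and not binding.

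Myod1 (chr7:46376474-46379092, plus strand) had a single domain of both marks around its start site. H3K4me2 regions named for Myod1 were present in 8 of 8 lists and H3K27ac regions in 7 of 8, with EDL missing. In EDL, an H3K27ac region of 9.25 kb covered the Myod1 start site but carried the name Munc, because its center lay nearer to that gene. Its level was 10.80 and 10.69 log2 tags in the EDL replicates, at the 89.1 percentile of the list, so that a region covered the Myod1 start site in all 8 H3K27ac lists. The domain reached from the gene to beyond Munc (Gm45923, chr7:46371403-46372492) as 1 region in Sol, Dia, Sed and Wt. It was called as 2 regions in Quad and Ex, and mTg had a small separate region at 2.57 kb. Further regions named for Munc lay farther upstream in every group, and in Quad they were centered at -36.4, -25.8 and -23.1 kb from the Myod1 start site.

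Myog (chr1:134290004-134292548, plus strand) had 31 H3K27ac and 30 H3K4me2 regions, which formed 3 recurrent elements. The promoter element and an element centered at 11.7 kb, over the neighboring Ppfia4 gene, were found in all 8 lists of both marks. The third element lay at -13.8 kb, in intergenic DNA, and had H3K27ac in 7 of 8 lists, all but Dia. H3K4me2 was called there in only 4 lists, of Quad, EDL, Sed and Ex.

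Myf6 (chr10:107492848-107494723, minus strand) had the most regions, 44 for H3K27ac and 53 for H3K4me2. A domain over the gene and its upstream flank was present in every list of both marks. As H3K27ac, its main region measured 10.8 to 14.3 kb in 7 groups, and in Ex the domain was called as 3 regions of 1.88 to 5.04 kb. Distal elements lay at -45.8 kb (6 H3K27ac lists), -68.4 kb (7 lists) and -73.6 kb (6 lists), all within Ptprq. The Ex H3K27ac list held none of these distal elements, although H3K4me2 was called at each of them in Ex. The lists of mTg lacked the element at -45.8 kb for both marks.

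Myf5 (chr10:107482908-107486927, minus strand) was the least often marked of the 4 genes, with H3K27ac regions in 6 of 8 lists and H3K4me2 regions in 7 of 8. No H3K27ac region was called for Myf5 in Ex or mTg, and no H3K4me2 region in mTg, whose H3K4me2 libraries included the shallowest. The curated Myf5 start site lay under a region in 5 H3K27ac lists and 2 H3K4me2 lists, and the predicted one in 3 and 2. Most other regions were in the body of the gene. A single H3K27ac region named for Myf5 stood apart at 96.7 kb, in an intron of Lin7a, in Quad alone.

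**Figure D1:**
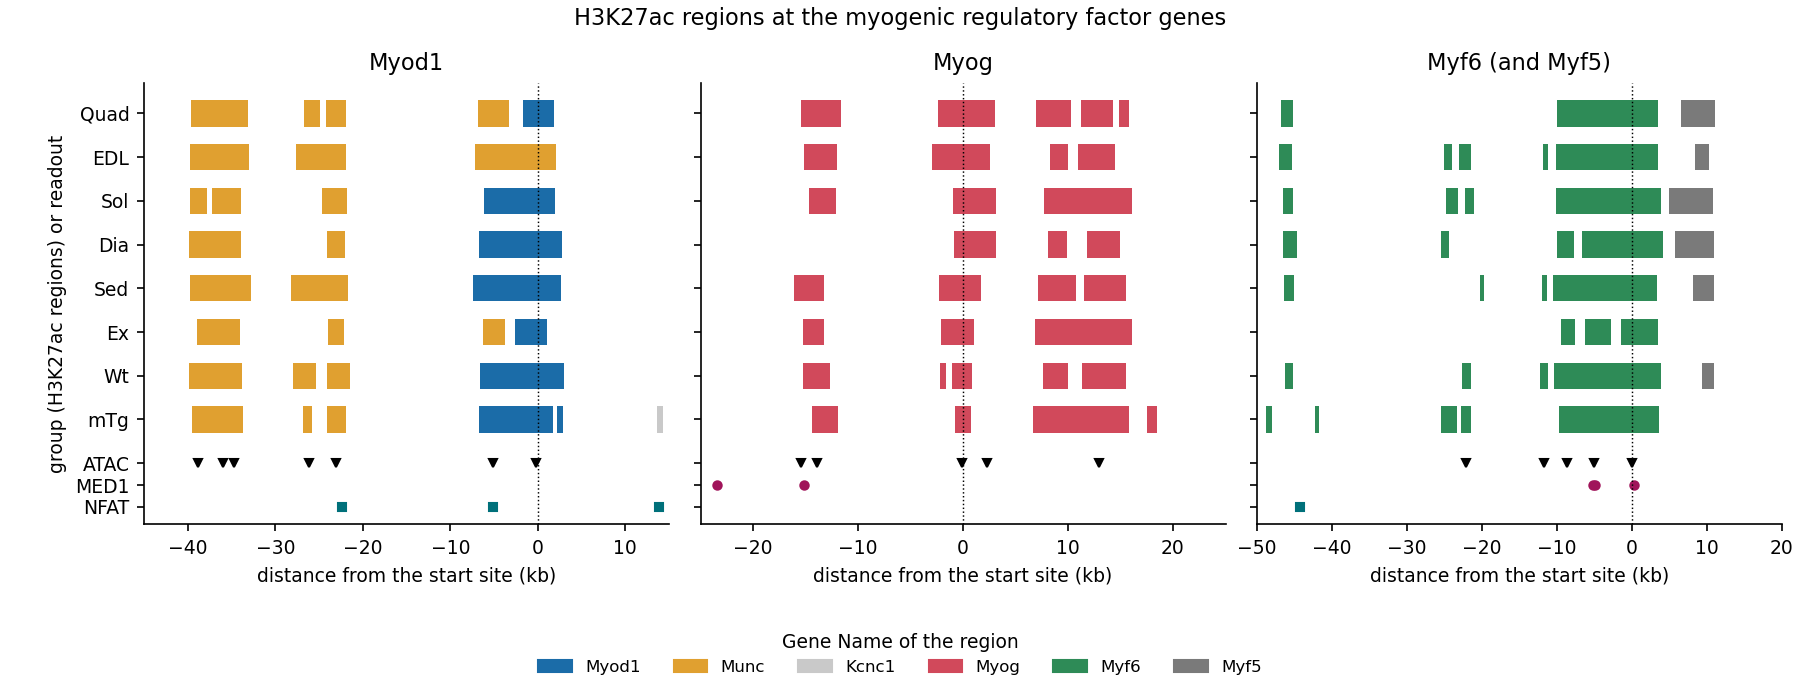
H3K27ac regions within 50 kb of the start sites of Myod1, Myog and Myf6 in each of 8 groups (rows), drawn to scale against distance in kb and colored by Gene Name, with centers of ATAC-seq (triangles), MED1 (circles) and NFAT (squares) peaks beneath. The Myf6 domain is continuous in most groups and is broken into 3 regions in Ex, and the EDL region over the Myod1 start site carries the name Munc.

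Myf5 stood apart from the other MRFs in the level of H3K27ac. For each gene, the region with the highest level per kb was ranked among all regions of its list, since the lists were normalized apart. The median percentile over the lists for H3K27ac was 91.8 for Myf6, 88.1 for Myog, 78.7 for Myod1 and 22.3 for Myf5. Per kb, the order was the same for H3K4me2, with 75.1, 73.8, 55.5 and 44.5. By total level, Myod1 ranked above Myog in both marks (96.7 against 93.7 for H3K27ac, 95.3 against 72.1 for H3K4me2), and Myf5 stood at 55.4 and 61.4. Myf6 and Myog were close in both marks and their ranges over groups overlapped, so that their order rests on small differences, whereas the H3K27ac range of Myf5, 13.4 to 42.3, lay below those of the other 3 genes. Per kb, the strongest Myf5 region was below the middle of every H3K27ac list that held one, and the strongest regions of the other 3 genes were above it.

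The strongest Myf6 region was its domain over the gene in 7 H3K27ac lists, with percentiles from 84.6 in mTg to 96.7 in EDL. In Ex it was a piece of the domain, centered at -4.48 kb and not over the gene, at 78.1, and the Ex region over the gene stood at 59.7. In EDL the replicates stood at 96.4 and 96.9. In Sol, the slow muscle, they stood at 85.5 and 84.5, below both Quad replicates (97.4 and 95.1) and both Dia replicates (91.4 and 94.3). Sol was therefore the lowest of the 4 muscles, with no overlap between replicates. Relative to input, the strongest Myf6 regions were enriched by 2.40 to 3.68 on the log2 scale.

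The strongest Myog region was the downstream element in Ppfia4 in 7 of the 8 H3K27ac lists and the promoter in mTg. Its percentile ran from 70.9 in Ex to 96.9 in Quad. The Quad replicates stood at 95.0 and 98.0, and the Sol replicates at 67.5 and 80.3. The Myog promoter itself ranked lower than the downstream element in these 7 lists, for example at 72.0 against 96.9 in Quad and 56.4 against 91.0 in Dia. In Wt the gap was small, with 88.3 (replicates 86.2 and 89.8) against 89.9 (90.8 and 88.5), and the replicates overlapped. Enrichment over input in the strongest Myog region was 2.74 to 3.79 on the log2 scale.

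Myod1 spanned the widest range among the muscles. Its H3K27ac percentile was 93.0 in Quad (replicates 94.4 and 90.7), 75.3 in Dia (74.9 and 75.3) and 54.9 in Sol (56.1 and 53.0). The replicates of these muscles did not overlap. In the H3K4me2 lists Myod1 stood at 82.7 in Quad, 75.7 in EDL, 56.7 in Dia and 53.0 in Sol, and the Dia and Sol replicates (54.7 and 58.5, 51.4 and 54.1) were nearly in contact. These levels per kb were taken over regions of unlike width, since the H3K27ac region measured 3.60 kb in Quad, 8.06 kb in Sol and 9.50 kb in Dia.

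**Figure D2:**
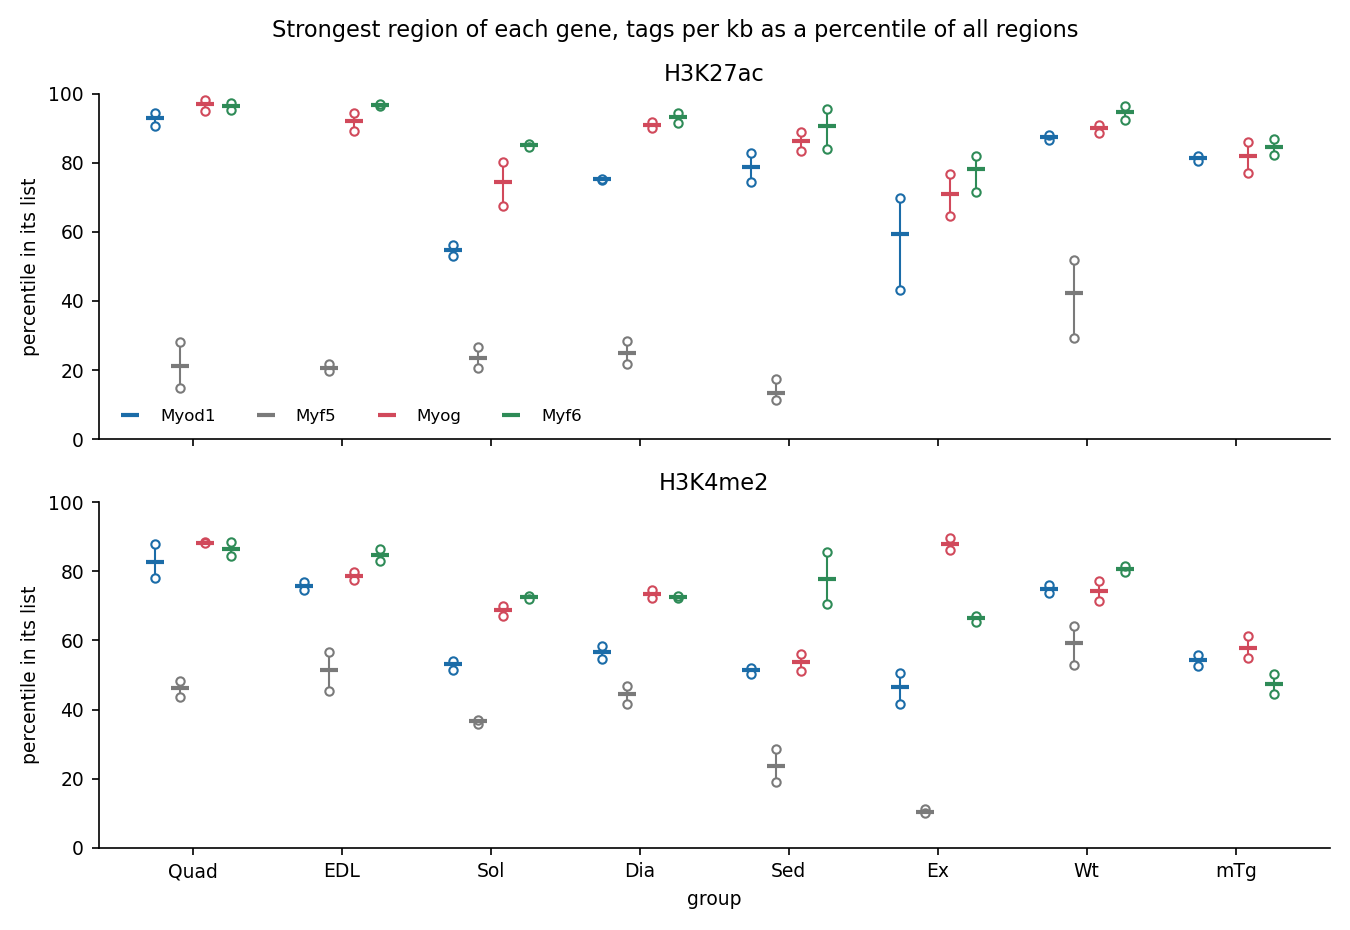
Percentile of the strongest region of each MRF among all regions of its list (y axis, in log2 tags per kb ranked from 0 to 100) in 8 groups for H3K27ac and H3K4me2; bars mark the mean level of both replicates and open circles each replicate. Myf6 and Myog lie above Myf5 in every list that holds a Myf5 region, and Ex has the lowest H3K27ac value of Myf6 and of Myog.

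Differences between muscles were then examined at matched regions, which are regions of a pair of lists that overlap reciprocally by at least 50%. Each difference in log2 tags per kb was centered on its median over all matched regions of the pair, and each library on its own median. Matched regions could still differ in width, and at equal tags a wider region has a lower level per kb. A region was called apart when the difference exceeded 1 and both libraries of one group lay beyond both of the other. Across 6 pairs of muscles, 0 of 41 matched MRF regions were called apart for H3K27ac, beside 2.65% of all matched regions, and 0 of 49 for H3K4me2, beside 0.925%. MRF differences ran from -0.87 to 0.82 for H3K27ac.

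Soleus was lower than the other muscles at the Myf6 domain, though by less than the limit of 1. On this scale, which is taken to shrink differences, 1 is not the authors' 2-fold limit. The centered levels were 0.67 and 0.57 in Sol and 1.39 and 1.15 in Quad, a difference of -0.69. EDL exceeded Sol by 0.82 (1.43 and 1.44 compared with 0.70 and 0.61), and Dia exceeded Sol by 0.57 (1.06 and 1.28 compared with 0.64 and 0.56). The region measured 14.0 kb in Sol, 13.5 kb in Quad and 13.6 kb in EDL. In Dia it measured only 10.8 kb, with a further upstream region called apart, so that width is part of the Dia difference. The replicates were apart in all 3 pairs. The element at -73.1 kb from Myf6 was also lower in Sol than in Quad, with a difference of -0.87, as was the upstream Myog element, with -0.71, and the replicates of both were apart. At Myod1, Dia exceeded Sol by 0.67, with levels of 0.34 and 0.35 in Dia and -0.30 and -0.36 in Sol. The Myod1 regions of Quad and Sol could not be matched for H3K27ac because of their widths, but for H3K4me2 the difference between Sol and Quad was -0.88 (-0.42 and -0.36 compared with 0.62 and 0.31).

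Some MRF regions ran the other way per kb between Sol and Quad. The Myf5 region was higher in Sol than in Quad by 0.44 for H3K27ac (-1.03 and -1.14 compared with -1.39 and -1.76). Dia also exceeded Quad there, by 0.35. For H3K4me2, the Myog region at 9.36 kb was higher in Sol than in Quad by 0.45 (0.19 and 0.08 compared with -0.41 and -0.29). EDL and Dia also exceeded Quad at this Myog region, by 0.69 and 0.71, and exceeded Sol by 0.21 and 0.26. The Quad region was the widest, with 3.53 kb compared with 2.45 kb in Sol, 1.98 kb in EDL and 2.16 kb in Dia. In total log2 tags, Sol (7.93 and 7.87) and Quad (7.81 and 8.05) overlapped there. With 2 replicates against 2, an exact two-sided permutation test cannot go below p = 0.333, so these separations were not tested. Cell type markers also varied between muscles. Median H3K27ac percentiles of fiber markers were 87.2 and 83.9 in the Sol replicates, with 8 of 8 present, and 97.0 and 95.4 in the Quad replicates, with 7 of 8, without overlap. Satellite cell markers, 6 of 7 with a region, were also lower in Sol (57.4 and 57.3) than in Quad (80.4 and 79.0), as were the 4 fibroblast markers (47.1 and 49.1 compared with 64.2 and 62.6). Endothelial markers were higher in Sol (73.6 and 83.0) than in Quad (69.6 and 69.0), and macrophage markers overlapped. The part of these markers in the MRF differences was not tested.

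**Figure D3:**
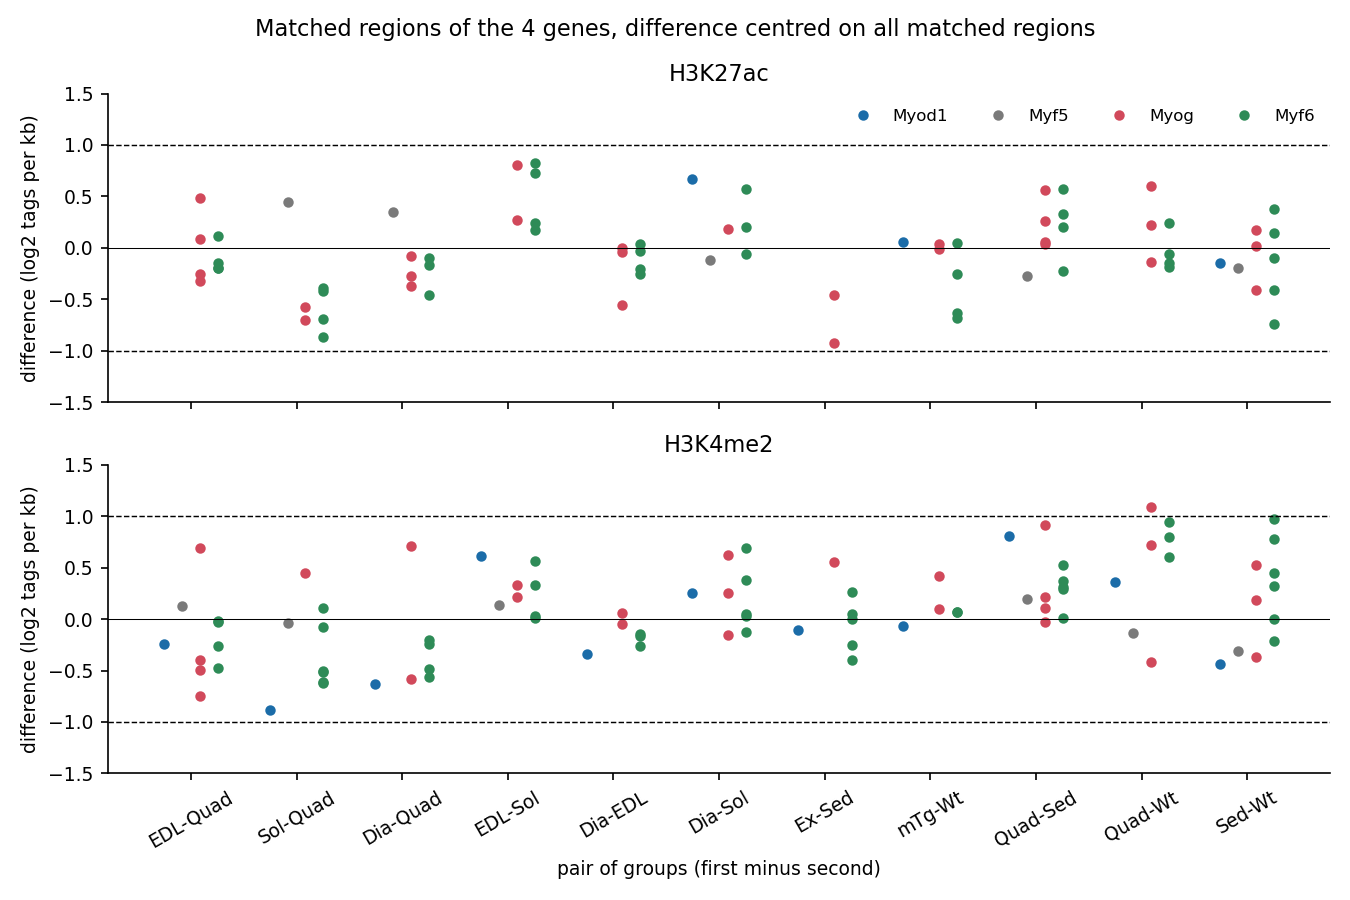
Differences between matched MRF regions (y axis, log2 tags per kb, centered on all matched regions of the pair) for 11 pairs of groups, each point being 1 region and each color 1 gene, with dashed lines at a difference of 1 in either direction. For H3K27ac every MRF point lies between the lines, and for H3K4me2 a single point, a Myog region in Quad minus Wt, lies above 1.

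The 3 untreated quadriceps sets, Quad, Sed and Wt, show how far nominally like groups stood apart. Of 26 matched MRF regions, 0 were called apart for H3K27ac, beside 0.981% of all regions. For H3K4me2, 1 of 30 was called, beside 1.76%. This was the Myog element at 13.1 kb, which was higher per kb in Quad (0.71 and 0.72) than in Wt (-0.50 and -0.17) by 1.09. The Quad region, of 2.28 kb, was much narrower than the Wt region (chr1:134301310-134305552), so that width entered this call. At the Myf6 domain, the untreated sets differed by 0.33 or less for H3K27ac, which is smaller than the differences of Sol from Quad and from EDL above. The difference of Sol from Dia was also larger per kb, but it was taken over regions of unlike width. At the element near -73 kb, the difference between Sed and Wt was -0.74, nearly as large as the gap between Sol and Quad. The Sed region, of 3.49 kb, was wider than the Wt region, whereas the Sol and Quad regions measured 2.58 and 2.68 kb. These gaps are therefore not directly comparable. For H3K4me2 at Myod1, Quad exceeded Sed by 0.81 (0.59 and 0.29 compared with -0.34 and -0.37), close in size to the -0.88 between Sol and Quad. The Myod1 regions measured 5.40 kb in Quad, 8.82 kb in Sed and 5.74 kb in Sol, so that only Quad and Sol were of similar width. In total log2 tags, Quad stood at 9.45 and 9.27, Sed at 8.98 and 9.08, and Sol at 8.55 and 8.66. At the Myog region near 9 kb, Quad and Wt differed by -0.41 for H3K4me2, compared with 0.45 between Sol and Quad. The Myog regions there measured 3.53 kb in Quad, 2.85 kb in Wt and 2.45 kb in Sol. Gaps per kb between regions of unlike width do not show how far the amounts of mark stood apart.

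After wheel running, H3K27ac was lower at the Myod1 domain and at 3 Myf6 regions. These 4 are the MRF regions in the list of 2280 regions that the authors selected as lower in Ex than in Sed, and none lay among the 382 regions selected as higher. No Myog or Myf5 region was in either list, so that 2 of 4 MRFs were in the lower list and 0 of 4 in the higher, beside 9.32% and 2.06% of all genes with an H3K27ac region. Because every region of the list was selected for its difference, 100% of them show separated replicates, and 2274 of 2280 (99.7%) passed limma at an adjusted p of 0.05 over the list. The values of the MRF regions are therefore a description of size and spread and are not independent evidence of a decrease.

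The Myod1 region (chr7:46369116-46379091) runs from upstream of Munc across the Myod1 gene. It stood at 9.25 and 8.85 log2 tags in the Ex replicates and 10.15 and 9.85 in the Sed replicates. Both Ex values lay below both Sed values, and the mean fell by 0.96 (SE 0.215, limma, adjusted p = 9.8e-05). The SE, moderated by limma over the list, was the same at every MRF region of the list. Of the list, 8.64% had a difference at least as negative, and the median of the list was -0.76. Regions named for Munc, at -31.2 and -19.9 kb from the Munc start site, were in the same list, with differences of -1.02 and -0.93, as was a region over Kcnc1, the neighboring potassium channel gene, with -0.83. The call at the farther Munc region was lost without Ex replicate 2 (-0.66, adjusted p = 0.0518, limma).

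The Myf6 domain (chr10:107491221-107505244) stood at 10.32 and 9.89 in Ex and 11.25 and 10.76 in Sed, without overlap. It fell by 0.90 (SE 0.215, limma, adjusted p = 0.000182). The distal region at -68.4 kb (chr10:107562315-107563846), which holds the accessible site printed above, fell by 0.87, from 7.17 and 7.09 in Sed to 6.39 and 6.12 in Ex (adjusted p = 0.000234, limma). The Sed replicates of this region were close together. At -73.3 kb (chr10:107566289-107569780), the levels were 7.02 and 6.65 in Ex and 7.96 and 7.15 in Sed, a difference of -0.72 (adjusted p = 0.00131, limma). The gap between groups here was narrow, and the limma call was lost without Ex replicate 2 (-0.54, adjusted p = 0.0866) or without Sed replicate 1 (-0.32, adjusted p = 0.149).

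**Figure D4:**
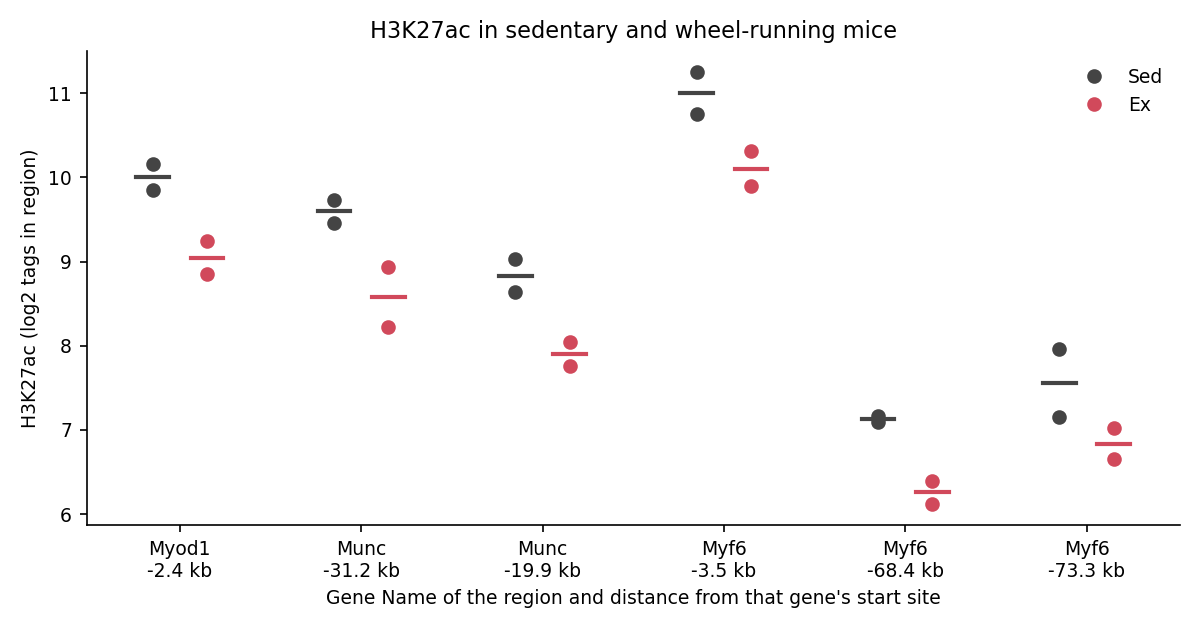
H3K27ac level (y axis, log2 tags in the region) of each Sed and Ex replicate (points) and the mean of each group (bars) at the 4 MRF regions selected by the authors as lower in Ex and at 2 regions named for Munc. Ex points lie below Sed points at every region, with the narrowest gap at the Myf6 region at -73.3 kb.

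In the lists called for each group alone, Ex had the lowest H3K27ac percentile of Myf6 and Myog and the second lowest of Myod1. The Myf6 percentile was 78.1 in Ex (replicates 81.8 and 71.7) and 90.5 in Sed (95.6 and 83.9). Myod1 stood at 59.2 in Ex (69.9 and 43.3) and 78.7 in Sed (82.7 and 74.4). Both pairs set unlike regions side by side, since the Ex regions measured 3.45 and 3.63 kb and the Sed regions 13.9 and 9.98 kb. At the Myog promoter, which was not in the authors' list, the centered level was -0.69 and -1.20 in Ex and 0.04 and -0.18 in Sed, a difference of -0.92. Only 2 MRF regions could be matched between these lists, and 0 of 2 were called apart, beside 3.17% of all matched regions. The Ex libraries were unequal at the MRFs, since replicate 1 exceeded replicate 2 in 6 of 7 regions, by a median of 0.81 compared with 0.18 over all regions of the list.

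H3K4me2 at the MRFs was closer between Ex and Sed. Of 7 matched regions, 0 were called apart, beside 0.0925% of all. The Myod1 domain differed by -0.11, with levels of -0.43 and -0.67 in Ex and -0.44 and -0.46 in Sed, which overlapped. Myf6 regions differed by -0.40 to 0.26, and the Myog region at 9.01 kb was higher per kb in Ex by 0.55 (0.16 and 0.11 compared with -0.32 and -0.53). That Myog region measured 1.88 kb in Ex and 3.31 kb in Sed. Its total log2 tags were lower in Ex (7.34 and 7.31) than in Sed (7.69 and 7.59), so that the direction depends on the width. Whether the marks differed in their response was not tested.

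Markers of several cell types also stood apart between Sed and Ex in the same H3K27ac lists. The median percentile of 8 fiber markers, of which 7 had a region, was 89.6 and 82.8 in the Sed replicates and 79.9 and 74.9 in the Ex replicates. Of these 8 genes, 4 (Des, Myh1, Myh4 and Ttn) also had a region in the list of regions lower in Ex. Satellite cell markers, 6 of 7 with a region, were at 71.5 and 56.8 in Sed and 56.2 and 49.1 in Ex, and only Itga7 was in the lower list. The 4 endothelial markers ran the other way, with 62.4 and 65.5 in Sed and 80.5 and 84.2 in Ex, and none was in the lower list. Fibroblast markers stood at 49.5 and 65.6 in Sed, with 3 of 4 present, and at 68.9 and 81.7 in Ex, with 4 of 4. Macrophage markers stood at 8.82 and 17.7 in Sed, with 3 of 4 present, and at 29.6 and 39.5 in Ex, with 4 of 4. The part of these markers in the lower acetylation at Myod1 and Myf6 was not tested.

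In mTg quadriceps, no MRF region was among the 1828 regions that the authors selected as higher than in Wt or the 844 selected as lower. Of all genes with an H3K27ac region, 8.35% had a region in the first list and 3.97% in the second, so that 0 of 4 MRFs is close to that background. Of 7 matched MRF regions, 0 were called apart for H3K27ac, beside 4.64% of all matched regions, and 0 of 5 for H3K4me2, beside 0.724%. The Myod1 domain stood at 0.64 and 0.52 in mTg and 0.51 and 0.59 in Wt, a difference of 0.05 with overlapping replicates. The Myog promoter differed by 0.03 and its upstream element by -0.01. The Myf6 domain differed by -0.26 (0.66 and 0.80 compared with 0.86 and 1.16), and the region at -73.0 kb by -0.68 (-0.69 and -0.26 compared with 0.20 and 0.25), both with replicates apart. The region at -73.0 kb was wider in mTg than in Wt, which lowers its level per kb. Endothelial markers also stood apart here, with median percentiles of 52.7 and 50.9 in mTg and 78.2 and 70.7 in Wt. The same order without overlap was seen for fibroblast markers (47.3 and 51.0 in mTg, 80.3 and 67.6 in Wt), macrophage markers (25.9 and 33.8, 52.1 and 48.4) and satellite cell markers (74.4 and 69.2, 80.8 and 82.7), whereas fiber markers overlapped. The part of these markers in the MRF values was not tested.

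Accessible chromatin, measured by ATAC-seq in control quadriceps as normalized tags of 1 pooled peak call, picked out discrete sites in these broad regions. Myod1 had 2 sites, at -0.178 kb with 18.5 tags and at -5.17 kb with 17.5 tags, at the 90.5 and 89.0 percentiles of all peaks. The site of the Myog downstream element, at 13.0 kb, had 17.8 tags (89.5 percentile), compared with 7.28 tags (51.3 percentile) at the Myog promoter. In Myog, then, the downstream element exceeded the promoter in accessibility as it did in acetylation in Quad. Myf6 had 10.3 tags at its promoter and 10.4 tags at -5.13 kb, and its most accessible site was the distal one at -68.3 kb, with 14.9 tags (84.5 percentile). The promoter site of Myf6 was the only 1 of the 15 with a MEF2 consensus, which 4.69% of all peaks held. No accessible site was called in the Myf5 gene region.

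Mediator subunit MED1, which bridges enhancers and RNA polymerase II, was mapped in 1 library per muscle. In Quad, peaks lay in the Myf6 domain at 0.221 and -4.92 kb and in the upstream Myog element at -15.2 kb. In Dia, 1 peak lay at -5.15 kb from Myf6, over the accessible site printed above. No MRF region held a MED1 peak in EDL or Sol, where 1.12% and 5.34% of all H3K27ac regions did. With 12 and 11 MRF regions with H3K27ac there, 0 is close to that background. Of 12 MRF regions with H3K27ac in Quad, 2 overlapped a MED1 peak (3.76% of all Quad regions) and 8 an ATAC-seq peak (57.2% of all), with MRF regions having a median width of 3.21 kb compared with 1.55 kb. NFAT, a calcium-dependent factor, was mapped in Quad and Sol. A Sol peak (chr7:46371205-46371407) lay on the accessible Myod1 site at -5.17 kb, with a peak score of 14.3 (34.5 percentile of Sol NFAT peaks). Of the Sol peaks within 50 kb of the Myod1 start site, the strongest lay elsewhere, at 13.9 kb, with a score of 18.4. No MRF region held an NFAT peak in Quad, where 0.0464% of all H3K27ac regions did, compared with 3.02% in Sol. These factor maps have no replicate, so that their differences between muscles carry no error.

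Genes that act with the MRFs were followed through a list of 54 genes, of which 50 had an H3K27ac region in some group and 39 in all 8. In the exercise-lower list, 9 of the 50 had a region, compared with 9.32% of all genes with an H3K27ac region. They were the repressors Hes1, Snai1 and Twist2, the cooperating factors Mef2a, Mef2c and Pax3, and the targets Des, Musk and Myl1. The largest differences were -0.85 at Mef2c (adjusted p = 0.000301, limma), -0.84 at Myl1, a myosin light chain, and -0.83 at Musk, a kinase of the neuromuscular junction. The exercise-higher list held 2, beside 2.06% of all genes: Twist2 (0.68) and Musk (0.57), each with a region other than the one that was lower. None of the 3 E protein genes was in either exercise list.

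Of the same network, 4 of the 50 genes had a region in the mTg list of higher regions, beside 8.35% of all genes. Among them, the difference was 0.84 at the cadherin gene Cdh15, 0.54 at the acetylcholine receptor subunit gene Chrnb1 and 0.53 at the inhibitor gene Id2. In the mTg list of lower regions, 3 of the 50 had a region, beside 3.97% of all genes: Tcf3, an E protein gene (-0.65), Zeb1 (-0.50) and Twist1 (-0.48), which both encode repressors. As in the exercise lists, these regions were selected for their difference.

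Across the H3K27ac libraries, other genes followed the MRFs in the level of their strongest region. Pearson correlations are given as a description, since the points share libraries, depth and tissue. Over 16 libraries Myf6 was most like Speg (r = 0.95), Rilpl1 (0.94) and A330023F24Rik (0.94), and over 14 libraries Myod1 was most like Mybpc2 (0.97), a fast myosin binding protein, Ccdc86 (0.97) and Pygm (0.96), muscle glycogen phosphorylase. Myog was most like Snord104 (0.91), Tal2 (0.89) and Tnfaip8 (0.88) over 16 libraries. For Myf5 the highest values, over 12 libraries, were for Cnot8 (0.90), Jag2 (0.88) and Dusp18 (0.88). Among the MRFs themselves, Myod1 correlated with Myf6 at 0.89 and with Myog at 0.83, and Myf6 with Myog at 0.82. For Myf5, the values were 0.33 with Myf6 and -0.07 with Myog over 12 libraries.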

How the data were processed

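The submitters' processing notes name Bowtie 1.2, HOMER, mm10 and mm9. The authors aligned reads to mm10, called histone-style regions with HOMER against input and kept regions 2-fold enriched over both replicates at an FDR of 0.05. Per the file headers, the deposited levels are log2 tag counts per region, taken here to be the regularized logarithm of DESeq2, which shrinks differences, so that the 2-fold limit of the authors is not 1 on this scale. The authors scaled the peak lists to total tags. The 4 differential lists, made from merged regions of both groups at 2-fold and an FDR of 0.05, carry no such scaling in their headers. The deposited score of a region, the adjusted p-value and the log2 fold change against input or control are the authors' own; they served as filters or to name the target group, and no value of theirs is printed beyond ranks by score. The authors' ATAC-seq list, called on pooled control samples, gives normalized tags as a signal per peak and a ratio (fold) over local background, and their MED1 and NFAT lists give a peak score whose scale the headers do not state. ATAC-seq, MED1 and NFAT peaks used are in mm10. The exercise and transgene ATAC-seq peaks and the footprints, whose build is not given in the sources used here, were not used.

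Regions were read with pandas 2.3.3 and tested with limma 3.58.1 (R 4.3.3) on every region of a differential list, 2 against 2, with Benjamini-Hochberg adjustment over the list, and the fit and the matching of regions were tested on simulated data. Levels per kb subtract log2 of the width. Centers and widths follow the deposited coordinates, and start sites, names and sequences come from RefSeq annotation of GRCm38.p6. Overlap with other readouts needed 1 base. Members and gene lists were chosen with earlier results of these data known. Named genes are the 4 members, the 3 genes most correlated with each over H3K27ac libraries (SD of at least 0.3), up to 3 network genes of largest difference per list and neighbors within 50 kb, and further network and marker genes were named after their values were seen. With 2 against 2 libraries, an exact permutation test cannot go below 0.333, so none was used. The limma p-values rest on the spread between these libraries as limma moderates it over a list. In the exercise-lower list the SE was 0.215 at every region reported, which is the median of the list. P-values there follow the size of the difference and not the replicate spread of the single region. As the lists hold regions the authors had selected for a difference, limma calls nearly all of them. The values of 1 network gene are not reported here.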

Additional observations from a re-analysis of the deposited data

How the results depend on the processing

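Among the recomputed values, 73 were taken as unchanged, 23 moved, 2 lost their call and 0 reversed. Unchanged differences kept direction and call, and unchanged percentiles stayed within the replicate spread. A count that moved by little, such as from 4 to 3 or from 6 to 5, was also taken as unchanged. The causes were not tested except where the alternative itself shows it. The number of H3K27ac lists with a Myf5 region went from 6 to 3 at an authors' adjusted p-value under 0.001. Ranked by total log2 level instead of level per kb, the median percentiles for H3K27ac were 96.7 for Myod1, 55.4 for Myf5, 93.7 for Myog and 99.5 for Myf6, and for H3K4me2 95.3 for Myod1, 61.4 for Myf5, 72.1 for Myog and 97.9 for Myf6. By the authors' peak score, they were 96.7, 55.7, 93.6 and 99.5 for H3K27ac and 95.3, 61.3, 72.1 and 97.95 for H3K4me2. Under both, Myod1 ranked above Myog in both marks, the reverse of the order per kb, and Myf5 remained the lowest. Both measures count the whole width of a region. Without replicate 1 or 2, the H3K27ac percentile of Myod1 was 75.3 to 81.9 and the H3K4me2 percentile of Myf6 72.4 to 77.1. Without centering, 5 matched MRF regions were called apart for H3K27ac and 9 for H3K4me2. For H3K27ac, 2 of 6 were in EDL against Sol, beside 5.99% of all matched regions. Dia against Sol (6.23%), Ex against Sed (4.40%) and Quad against Wt (6.33%) had 1 each. Most H3K4me2 calls were between untreated quadriceps sets. Quad against Wt had 4 of 8 (7.24%), Quad against Sed 2 of 11 (0.847%) and Sed against Wt 1 of 11 (2.58%). With 1 replicate per group the counts were the same or higher than in the main setting. The 4 MRF regions lower in Ex became 3 under the stricter p-value and 3 to 4 without a library, and 5 with every region within 50 kb of a start site. Without Ex replicate 2, limma called 1191 of the 2280 regions of that list, compared with 2274, and without Sed replicate 1 or 2 it called 0 and 205 of the 382 higher in Ex, compared with 381. The 2 lost calls were at the Myf6 element at -73.3 kb, with -0.54 (adjusted p = 0.0866, limma) without Ex replicate 2 and -0.32 (adjusted p = 0.149, limma) without Sed replicate 1. With the replicate number as a block, all 4 regions kept their differences, and the Myf6 domain had an adjusted p of 4.45e-07 (limma). Replicate numbers are only labels here, since with 2 pairs the correlation of deviations was 0.106 in the exercise-lower list and -0.242 in the mTg-lower list, and the block changed no MRF call. The mTg lists held no MRF region to begin with, so that refitting or filtering their regions could only return 0. These fixed values are among the 73 taken as unchanged. Widening the rule to every region within 50 kb of an MRF start site also gave 0 in the mTg lists. The lowest depth, 6405517 tags in an mTg H3K4me2 library, limits what a missing region there shows.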
